A study of Mus musculus with 2 samples.

Results

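Amino acid solute carriers are the membrane proteins that move amino acids, and some related small molecules, into and out of cells and organelles. They were taken here as the genes whose only platform symbol begins with Slc1a, Slc3a, Slc6a, Slc7a, Slc36a, Slc38a or Slc43a followed by a digit, which gave 63 of the 18194 genes named on the array. Of these 63, 3 are opposite-strand genes that share a carrier's name without being carriers (Slc7a6os, Slc36a1os and Slc6a19os). Where a gene had several probe sets, the brightest by mean log2 signal over the arrays was read. The material was lens RNA of wild-type C57/BL6 mice aged 7 days (P7) and 60 days (P60), with no treatment. Each age was a pool of lenses on 1 Affymetrix array, so no value has a replicate, the ages cannot be tested against each other, and only the size of a difference is given. Lenses in a pool cannot be told apart, and the sources used here do not give their number or sex. The comparison asks how carrier transcripts differ between the growing and the adult lens.

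The lens has no blood vessels of its own once the fetal vessels have regressed, and its cells draw amino acids from the aqueous and vitreous humours. Carriers supply protein synthesis in young fibre cells and the cysteine, glutamate and glycine from which glutathione, the main lens antioxidant, is made. Several carriers are exchangers, which bring in 1 amino acid against the release of another, and some work only as a pair of a light chain that forms the pore and a heavy chain that brings it to the membrane. Taurine and other organic osmolytes, which balance cell volume, enter through relatives of these carriers.

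The deposited signals are linear intensities in arbitrary units. A floor of 103.9, the median signal over both arrays, was set as the level under which a signal was not read, and lower signals were raised to it before a ratio was taken. Folds that involve such a signal are minimum sizes, marked by "at least". At P7 52.2% and at P60 47.8% of 45101 probe sets lay above it. The 5′ to 3′ signal ratio of beta-actin, a sign of RNA integrity, was 0.785 at P7 and 0.606 at P60, and that of Gapdh was 1.39 and 1.29; the part of this difference in any ratio reported here was not tested. All 8 lens fibre markers, among them Cryaa, Mip and Lim2, were above the floor at both ages, and 0 of 8 differed by 2-fold on the brightest probe set. They read from 28067 to 73557, near the top of the scale, so these ratios do not show that fibre RNA was equal, and a dimmer probe set of the fibre connexin Gja3 stood at -1.30. As a guide to error, probe sets of the same gene differed in their log2 ratio (P60 over P7) with an SD of 0.58, pooled over 4239 genes on the same arrays; variation among animals, pools or hybridisations is not in it.

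Of the 63 genes, 45 were above the floor on at least 1 array and 18 on neither. Among the 45, 8 reached 2-fold higher at P60, 8 reached 2-fold lower, and 29 reached neither. Of these 29, 18 were above the floor at both ages, and the ratios of the rest are minimum sizes, so their true folds may pass 2-fold. The calls make up 17.8% in each direction, against 11.5% of all 13029 measured genes higher and 9.44% lower (20.9% either way). The difference between these shares was not tested. The 8 higher genes were Slc43a2, Slc6a6, Slc7a8, Slc38a7, Slc6a13, Slc7a11, Slc36a2 and Slc7a4. The 8 lower genes were Slc7a5, Slc1a7, Slc38a5, Slc38a1, Slc7a1, Slc6a7, Slc7a6 and Slc6a15. The median log2 ratio of the 45 was 0.16 and that of all measured genes 0.02. With 1 array an age, the signals of a gene cannot be placed against a spread between animals. In pooled tissue, fewer cells of a type and less RNA per cell cannot be told apart either.

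**Figure D1:**
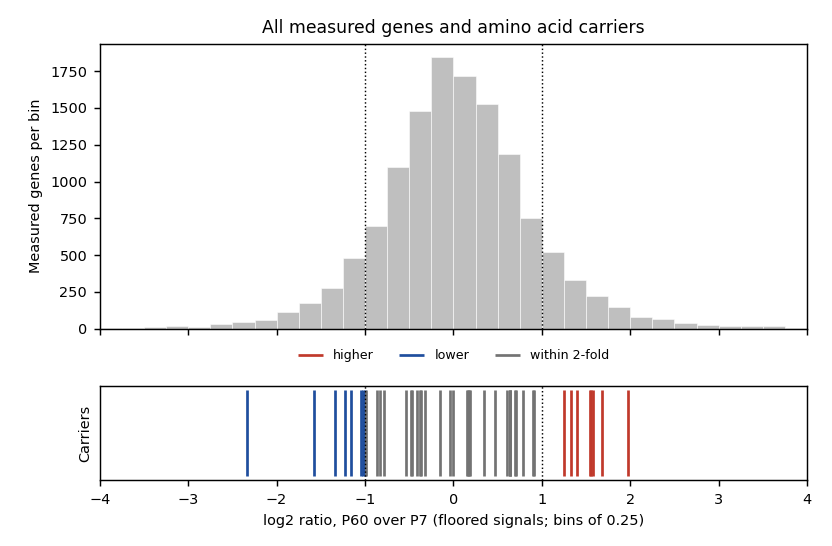
The upper panel counts all 13029 measured genes by log2 ratio (P60 over P7, bins of 0.25, shown from -4 to 4), and the lower panel marks each of the 45 measured carrier-pattern genes with a line coloured by call. Dotted lines mark 2-fold; 8 lines lie beyond it on each side, with Slc7a5 drawn at -2.34 and Slc43a2 at 1.97; bounds are drawn at their minimum size, and with a floor of 52.0 those of Slc1a7 (-2.58) and Slc36a2 (2.32) would lie further out.

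The 16 genes past 2-fold included members brightly read at both ages and members read at 1 age only. Of the higher calls 2 (Slc6a13 and Slc36a2) and of the lower calls 3 (Slc1a7, Slc38a5 and Slc6a7) rest on a signal under the floor. Some calls stand close to the limit. The log2 ratio of Slc6a15 (-1.001) and that of Slc7a6 (-1.03) were just past it, and Slc7a13 (-0.99) fell just short.

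**Figure D2:**
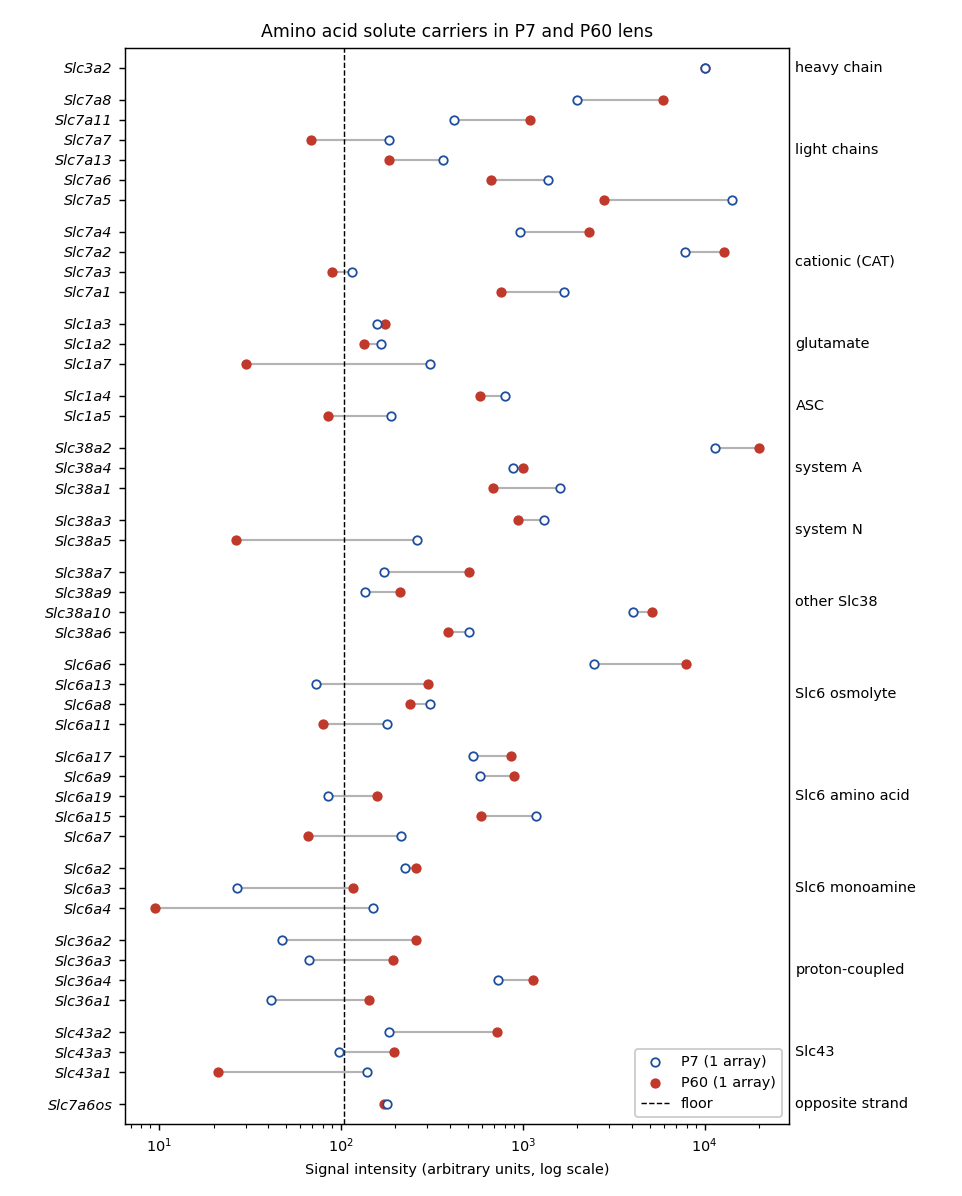
Signal intensity (arbitrary units, log scale) of the 45 measured genes at P7 (open blue) and P60 (filled red), 1 array each, ordered by role and joined by a line; the dashed line is the floor of 103.9. The Slc3a2 points coincide at 10080 and 10019, Slc7a5 moves left from 14237 to 2814, and Slc7a8 moves right from 1981 to 5935.

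The heavy chain Slc3a2 (CD98hc), partner of most light chains, had a signal of 10080 at P7 and 10019 at P60, a log2 ratio of -0.01 on its only probe set. The signals differ by less than the spread between probe sets of a gene. Its light chains did not move with it. Slc7a5 (LAT1), which exchanges large neutral amino acids such as leucine and tryptophan for glutamine, read 14237 at P7 and 2814 at P60. It was thus 5.06-fold lower, the largest fold among the genes above the floor at both ages. Slc7a8 (LAT2), which carries a broader range of neutral amino acids and, like LAT1, pairs with Slc3a2, read 1981 at P7 and 5935 at P60, a log2 ratio of 1.58. These light chains of the same transport system stood on opposite sides of 2-fold, each on 1 probe set.

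Slc7a11 (xCT), the light chain of the exchanger that takes up cystine against glutamate and so feeds glutathione synthesis, read 418 at P7 and 1101 at P60, 2.63-fold higher. Its other probe set, under the floor at P7 (103.5) and at 354 at P60, had a bound of 1.77 on the log2 scale. Both probe sets were on the higher side. Slc7a6 (y+LAT2), which exchanges cationic for neutral amino acids, read 1373 at P7 and 673 at P60. It was 2.04-fold lower, and its dimmer probe set stood at -1.33. Its relative Slc7a7 (y+LAT1), known for lysinuric protein intolerance when mutated, read 185 at P7 and 68.4 at P60, which is at least 1.78-fold lower.

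Of 6 light chains on the array that pair with Slc3a2, 5 were measured: 2 were 2-fold higher, 2 were 2-fold lower, and Slc7a7 did not reach 2-fold. The sixth, Slc7a10, which carries D-serine and small neutral amino acids in brain, was under the floor at both ages (31.0 and 31.7). Among all measured genes 11.5% were higher and 9.44% lower, and 5 light chains are too few to be set apart from these shares. Slc7a13, an aspartate and glutamate carrier of the kidney tubule, read 365 and 184. The cystine and dibasic amino acid pair of kidney, heavy chain Slc3a1 and light chain Slc7a9, was under the floor at both ages, with Slc7a9 the nearer to it (102 and 75.1). Slc7a12 and Slc7a15 were likewise under the floor.

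The bases before the start are given for the heavy chain Slc3a2 and for Slc7a11 and Slc7a8, light chains that pair with it, both higher at P60. The Slc7a11 start is also a textbook site of amino acid control. Slc3a2 pairs as well with Slc7a5 and Slc7a6, both lower at P60. No window was at hand for Slc7a5, and those of Slc7a6 are not printed. Sequences are from RefSeq, build GRCm38.p6, minus strand in each case, 250 bases ending just before the start. Capitals mark matches to TGATGNAA or TGANNNNGC, searched on both strands. TGATGNAA is the core bound by ATF4 with a C/EBP partner when amino acids run short. TGANNNNGC is a loose form of the antioxidant element core. It allows any base after TGA, so some matches do not hold the core itself.
Slc7a11 (chr3:50443614-50443863): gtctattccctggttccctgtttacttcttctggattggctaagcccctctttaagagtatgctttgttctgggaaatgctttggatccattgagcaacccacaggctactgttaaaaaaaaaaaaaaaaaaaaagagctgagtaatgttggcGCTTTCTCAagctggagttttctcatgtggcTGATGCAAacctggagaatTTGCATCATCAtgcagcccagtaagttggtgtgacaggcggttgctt
Slc7a8 (chr14:54781887-54782136): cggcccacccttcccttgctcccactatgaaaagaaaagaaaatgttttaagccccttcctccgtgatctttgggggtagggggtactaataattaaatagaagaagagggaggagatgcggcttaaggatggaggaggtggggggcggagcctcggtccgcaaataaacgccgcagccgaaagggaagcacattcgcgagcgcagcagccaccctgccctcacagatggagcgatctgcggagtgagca
Slc3a2 (chr19:8713898-8714147): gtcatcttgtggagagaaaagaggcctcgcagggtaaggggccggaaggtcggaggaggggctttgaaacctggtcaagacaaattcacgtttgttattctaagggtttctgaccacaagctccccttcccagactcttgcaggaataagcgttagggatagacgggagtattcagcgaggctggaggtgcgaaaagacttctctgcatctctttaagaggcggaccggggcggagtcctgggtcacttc
In the Slc7a11 window TGATGNAA matched at -66 and, on the other strand, at -47, counting back from -1 at the base before the start, and TGANNNNGC matched at -97 and -45; the matches at -47 and -45 overlap. Windows of Slc7a8 and Slc3a2 held neither. In Slc7a6, whose windows are not printed, TGANNNNGC matched at -68 in 1 window. Among 32851 RefSeq windows of the same length 3.45% held TGATGNAA and 35.2% held TGANNNNGC. Of the 45 measured genes 30 had at least 1 window, 44 in all, since a gene with several starts has several. Counted by window, as in the background, 3 of 44 (6.82%) held TGATGNAA and 23 of 44 (52.3%) TGANNNNGC; windows of a gene can overlap, and the shares were not tested against each other. Counted by gene, TGATGNAA was found in 2 of 30, Slc7a11 and Slc7a7, and TGANNNNGC in 20 of 30. A match is a run of letters and not evidence of binding.

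Cationic amino acid carriers of the CAT type take up arginine, lysine and ornithine without sodium. Slc7a1 (CAT1), the widely expressed form, read 1695 at P7 and 757 at P60, 2.24-fold lower. Its 2 other measured probe sets disagreed, at -1.32 and at 0.36, the latter on a dim probe set (91.9, under the floor, and 133). Slc7a2 (CAT2) read 7809 at P7 and 12743 at P60, 1.63-fold higher and within the limit. Its 3 other probe sets, much dimmer, ran from -0.44 to 0.35. The ratios of these 2 main arginine carriers thus had opposite signs on their brightest probe sets, and only that of Slc7a1 passed 2-fold. Slc7a4, which resembles CAT carriers in sequence but whose transport function is unsettled, read 972 and 2316, 2.38-fold higher, with its other measured probe set at 1.90. Slc7a3 (CAT3) read 115 and 90.1, around the floor, and the lysosomal relative Slc7a14 was under the floor at both ages.

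Of 3 measured sodium-driven glutamate carriers, 0 reached 2-fold higher and 1 was lower. Beside the 11.5% higher and 9.44% lower of all measured genes, 3 genes are too few to show a difference. Slc1a3 (GLAST), the form of glia and Müller cells, read 157 at P7 and 176 at P60, with its 2 other measured probe sets at -0.07 and 0.22. Slc1a2 (GLT-1), the main form of astrocytes, read 167 and 134. Both stayed near the floor. Slc1a7 (EAAT5), a form of retinal photoreceptors and bipolar cells, read 311 at P7 and 30.3 at P60 and was at least 2.99-fold lower. Slc1a1 (EAAT3), which also takes up cysteine, was under the floor on all 3 of its probe sets at both ages (83.4 and 21.6 on the brightest), and Slc1a6 was as well. Of the neutral exchangers of this family, Slc1a4 (ASCT1), a carrier of serine and alanine, read 802 and 581, with 3 probe sets from -0.95 to -0.26. Slc1a5 (ASCT2), a glutamine exchanger of growing cells, read 190 at P7 and 84.6 at P60, which is at least 1.82-fold lower.

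The Slc38 family carries glutamine, alanine and other small neutral amino acids with sodium. Of its system A members, Slc38a2 (SNAT2), known to be induced by amino acid shortage and by hypertonic medium, read 11483 at P7 and 19832 at P60. It was 1.73-fold higher and within the limit, with all 3 probe sets on the higher side (0.44 to 0.79). Slc38a1 (SNAT1), which has the same substrates, read 1609 at P7 and 689 at P60, 2.34-fold lower, and its other probe set stood at -0.72. Slc38a4 (SNAT4) read 884 and 1002, and its other probe set had a ratio of -0.44. The system A members thus differed in the sign of their ratios, and Slc38a1 alone passed 2-fold.

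Of the system N members, which also let glutamine out of cells, Slc38a3 (SNAT3) read 1315 and 945 and lay within 2-fold. Slc38a5 (SNAT5) read 264 at P7 and 26.4 at P60, at least 2.54-fold lower on 1 probe set. Slc38a7, which releases glutamine and asparagine from the lysosome, read 173 at P7 and 509 at P60, 2.94-fold higher on 1 probe set. Slc38a9, the lysosomal arginine sensor of mTORC1, read 137 and 212 on its brightest probe set, but 4 of its 5 other measured probe sets were below 0 (-0.90 to -0.32) and the other stood at 0.02. No direction can be given for this gene. Slc38a10 read 4041 and 5153 on its brightest probe set, with the 5 others from -1.65 to 0.94. Slc38a6 read 507 and 391.

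Among osmolyte, GABA and creatine carriers of the Slc6 family, Slc6a6 (TauT), the taurine transporter, read 2463 at P7 and 7866 at P60. It was 3.19-fold higher, and its 2 other measured probe sets stood at 1.05 and 1.16, so all of them passed 2-fold. Slc6a13 (GAT2), a carrier of GABA that also takes taurine, read 73.0, under the floor, at P7 and 303 at P60, at least 2.91-fold higher. Slc6a8, the creatine transporter, read 309 and 240, with its other probe set at -1.23, a bound. Slc6a11 (GAT3) was at least 1.73-fold lower (179 and 80.3), and Slc6a12, the betaine carrier of kidney medulla, was under the floor at both ages. Of the 4 measured members of this set, 2 were 2-fold higher, 1 of them on a bound, and 0 were 2-fold lower. The shares over all measured genes were 11.5% higher and 9.44% lower, and 4 genes are too few to be set apart from them.

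Of 5 measured Slc6 carriers of amino acids proper, 2 were called lower, 1 of them on a bound, and 0 higher. The median log2 ratio of the 5 was 0.61. Over all measured genes 9.44% were lower and 11.5% higher, and so small a set cannot be set apart from these shares. Slc6a15 (B0AT2), a carrier of branched-chain amino acids and proline typical of neurons, read 1183 at P7 and 591 at P60, a log2 ratio of -1.001. Slc6a7, the neuronal proline carrier, read 215 at P7 and 66.2 at P60, which is at least 2.07-fold lower. Both rest on 1 probe set. Slc6a9 (GlyT1), the glycine carrier, read 580 and 902 on its brightest probe set and stood at -0.51 on the other. Slc6a17, a vesicular carrier of neurons, read 533 and 864, with its other probe sets at -0.65 and 1.35, so neither gene has a settled direction. Slc6a19, of kidney and gut, was under the floor at P7 and read 158 at P60. The glycine carrier Slc6a5, and Slc6a14, Slc6a18, Slc6a20a and Slc6a20b, were under the floor at both ages, as were the orphan members Slc6a16 and Slc6a21. Monoamine carriers fall under the same symbol pattern although they move no amino acid. The noradrenaline carrier Slc6a2 read 227 and 258 and lay within 2-fold. The dopamine carrier Slc6a3 was under the floor at P7 and at 117 at P60, at least 1.12-fold higher. The serotonin carrier Slc6a4 read 151 at P7 and 9.57 at P60, at least 1.45-fold lower. Neither of these bounds reached 2-fold, and the true folds may be larger.

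The Slc36 family includes proton-coupled carriers of small amino acids such as proline, glycine and alanine, although not every member is known to work in this way. All 4 members had ratios above 0, although each rests on 1 probe set. Of these, 3 were under the floor at P7 and measured through P60 alone, so their ratios could only lie above 0. The shared sign is therefore no result about the family. Slc36a4 (PAT4), the only member above the floor at both ages, read 731 at P7 and 1134 at P60. Slc36a2 (PAT2) read 47.6 at P7 and 260 at P60, at least 2.51-fold higher and the only member past 2-fold. Slc36a3 (66.8 and 193) and the lysosomal carrier Slc36a1 (41.3 and 144) had bounds of 1.86-fold and 1.38-fold higher. In the Slc43 family, Slc43a2 (LAT4), a facilitated carrier of leucine, phenylalanine and methionine that needs no heavy chain, read 185 at P7 and 723 at P60. It was 3.92-fold higher, the highest ratio among the genes above the floor at both ages, but its 2 other probe sets were under the floor at both ages. Slc43a1 (LAT3), with a like substrate range, read 139 at P7 and 21.2 at P60, at least 1.33-fold lower, and Slc43a3, a purine nucleobase carrier, was at least 1.89-fold higher (97.3 and 196).

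Of the opposite-strand genes, Slc7a6os, which lies against Slc7a6, was measured and read 179 and 173, with its other probe set at -0.70, so it stayed within 2-fold.

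Of the 16 genes past 2-fold, 6 had several measured probe sets, and in 5 of these all probe sets lay on the same side; Slc7a1 was the exception. Of all 45 measured genes, 18 had only 1 probe set on the array. Over 10 alternative settings Slc7a5, Slc7a8, Slc7a11, Slc7a4 and Slc38a7 stayed past 2-fold in each. Slc7a5, Slc7a8 and Slc38a7 have 1 probe set each, so settings that change the choice of probe set could not move them. For Slc7a5 and Slc7a8, above every floor tried at both ages, a change of floor could not either. Their steadiness says little about the error of a single array. The call of Slc6a6 ended with the mean over its probe sets (0.97), and so did that of Slc43a2 (0.66). In that mean a probe set under the floor at both ages enters with a ratio of 0. Of 4 Slc6a6 probe sets 3 were measured, and of 3 Slc43a2 probe sets 1, so unread probe sets lowered both means. With a floor of 208 the bounds of Slc1a7 (-0.58), Slc38a5 (-0.34), Slc6a7 (-0.05), Slc6a13 (0.54) and Slc36a2 (0.32) no longer reached 2-fold. Slc6a7 also fell short with a floor from receptor probe sets (-0.81), and with a pseudocount of 32 in place of the floor Slc6a15 (-0.96) and Slc7a6 (-0.994) fell just short. Slc38a1 stood at -0.72 without probe sets that may bind several transcripts and with its dimmest probe set, and at -0.97 with the mean. Slc7a1 stood at -0.71 with the mean and at 0.36 with its dimmest probe set above the floor.

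**Figure D3:**
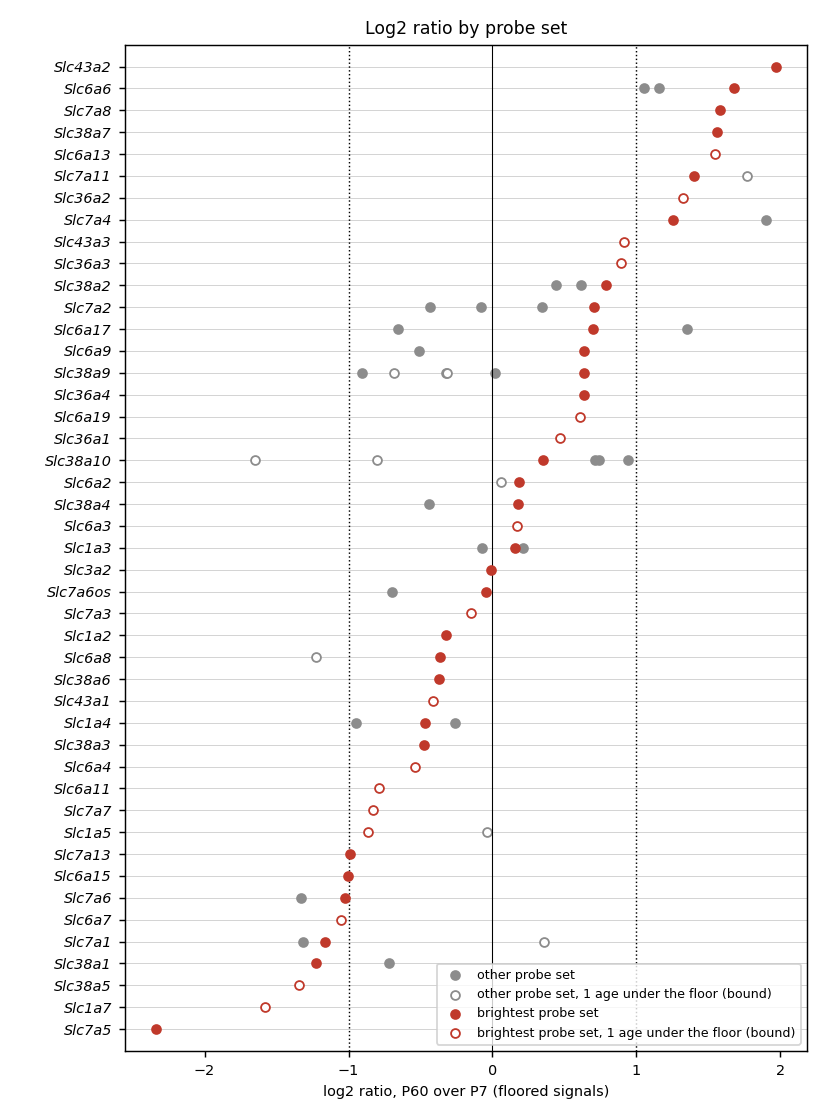
Log2 ratio (P60 over P7, floored signals) of every measured probe set of the 45 genes, sorted by the brightest probe set (red); other probe sets are grey, and open points are bounds because 1 age was under the floor. The probe sets of Slc6a6, Slc7a11 and Slc7a4 lie together on the right, while those of Slc38a10, Slc38a9, Slc6a17 and Slc7a2 spread over both sides of 0.

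**Figure D4:**
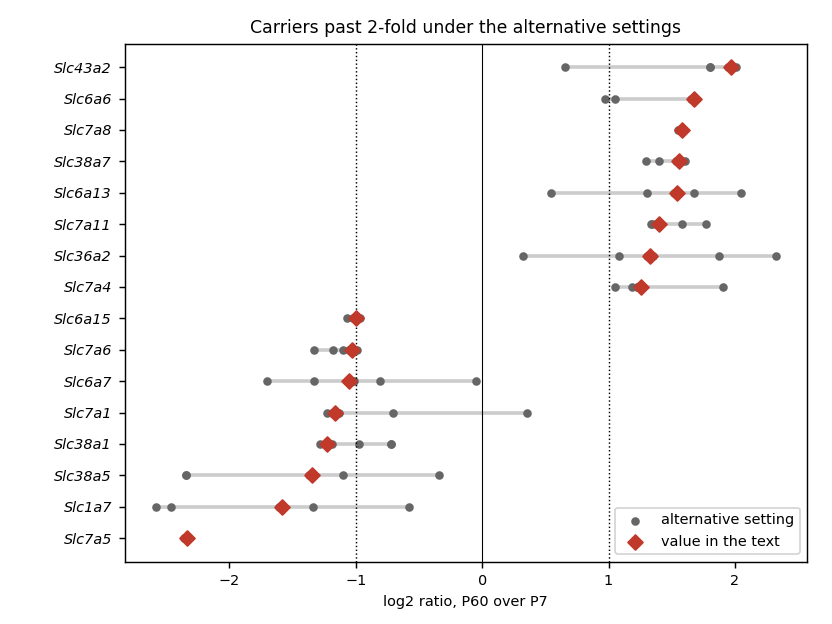
Log2 ratio (P60 over P7) of the 16 genes past 2-fold, with the value given in the text as a red diamond and each alternative setting as a grey point; dotted lines mark 2-fold. Slc7a5 stays between -2.36 and -2.33 and Slc7a8 between 1.55 and 1.58, and Slc7a1 alone crosses 0. Slc7a5 and Slc7a8 have 1 probe set each and lie above every floor tried, so most settings could not move them.

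Markers of other cell types moved between the pools. As a background for the counts, 11.5% of all measured genes were higher and 9.44% lower, and no marker list was tested against these shares. Of 12 vascular endothelial genes 10 were above the floor at P7 and 3 at P60; 7 of the 10 measured were at least 2-fold lower and 0 higher, and their summed signal was 4951 at P7 and 1162 at P60. Slc7a5, Slc7a1 and Slc38a5 are also known from the endothelium of the blood-brain barrier. These 3 were picked from the lower carriers, and the heavy chain Slc3a2, which pairs with Slc7a5, had a log2 ratio of -0.01. Cldn5 read 1086 and 70.4, while Pecam1 was under the floor at both ages. Of 9 neuronal genes all were above the floor at P7 and 2 at P60, 5 were at least 2-fold lower and 0 higher, and the sums were 3638 and 737. In the endothelial and neuronal lists, a measured gene under the floor at P60 was read through P7 alone. Such a gene could not come out higher. Among the lower neuronal calls, other measured probe sets of Rbfox3, Syt1 and Nefl stood at -0.32, -0.25 and -0.05, and those of Elavl4 at -1.34 and -0.57. Slc6a15, Slc6a7 and Slc38a1, all lower at P60, are known from neurons, and so is Slc6a17, which read 533 and 864. Photoreceptor genes, beside Slc1a7, went both ways: 2 of 8 measured were lower, 1 was higher, and the sums were 3327 and 2299. The part of these cells in the lower carrier signals was not tested.

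The other marker lists differed in direction. Of 6 macroglial genes 2 were higher (Glul and Aqp4), 1 was lower, the median was -0.02 and the sums were 3214 and 9455; Glul and Aqp4 are also read in many other cells. Of 5 lens epithelial markers, all above the floor at both ages, 2 were higher (Cdh1 and Krt18), 1 was lower (Foxe3), and the sums were 10304 and 18364; Slc38a3 is 1 of these 5 as well as a carrier. Pericyte genes split, with 1 of 5 measured higher and 2 lower (sums of 11017 and 6166). Pigment cell genes gave sums of 2743 and 2484, with 1 of 7 higher and 2 lower. Macrophage genes gave 1262 and 892 with 0 of 6 past 2-fold, and 2 measured erythroid genes were under the floor at P60. In the corneal list Krt12 was under the floor at both ages and Aldh3a1 was at least 179-fold higher, which sets its sums of 328 and 18990. Their part in the carrier values was not tested.

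Genes that make, sense or use amino acids give the setting. The counts of these lists stand beside 11.5% higher and 9.44% lower of all measured genes and were not tested against them. Of 25 measured genes of amino acid synthesis and breakdown, 4 were at least 2-fold higher and 2 lower, with a median of 0.09. Phgdh, the entry enzyme of serine synthesis, read 5313 at P7 and 29117 at P60, 5.48-fold higher, with its 3 other probe sets from 1.26 to 2.06. Csad, an enzyme of taurine synthesis, read 812 and 3105, 3.83-fold higher. At the other end, Psph, the last enzyme of serine synthesis, was 2.35-fold and Bckdhb, of branched-chain breakdown, 2.03-fold lower.

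Of 13 measured genes of glutathione synthesis and recycling, 2 were higher and 2 lower (median 0.21). Beside the cystine carrier Slc7a11, the rate-limiting ligase subunits Gclc (3317 and 4723) and Gclm (3782 and 6027) stood at 0.51 and 0.67. These values, on the brightest probe sets, lay within 2-fold. The other probe set of Gclc stood at 0.58 and that of Gclm at 1.10, past 2-fold. Oplah, which returns glutamate from 5-oxoproline, was 2.80-fold higher, and Cth, which makes cysteine from cystathionine, at least 2.09-fold higher. Ggct, which forms 5-oxoproline, read 21811 at P7 and 1861 at P60, 11.7-fold lower, with other probe sets at -2.47 and -0.71. Ggt5 was 2.19-fold lower, against 0.38 on its dimmer probe set.

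Of 17 measured genes of the ATF4 amino acid response, 1 was higher and 3 were lower (median 0.10). Atf4 itself read 9530 and 3931, 2.42-fold lower, and its other probe set stood at -1.03. Vldlr was 5.21-fold lower, Cebpb 3.27-fold higher and Chac1, the next highest, stood at 0.87. Asns, the asparagine synthetase, lay at -0.39, with its other probe set at 0.40. The carriers Slc7a5, Slc7a11 and Slc38a2 are among the known ATF4 targets, and their ratios here were -2.34, 1.40 and 0.79. They were picked as examples and do not stand for all carriers under ATF4 control.

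Cytosolic aminoacyl-tRNA synthetases, which charge tRNAs with the amino acids taken up, had a median of -0.45 over 19 genes, 3 of them at least 2-fold lower and 0 higher. Cars was 3.70-fold lower, against -0.37 on a dimmer probe set, and Lars, the leucine enzyme, 2.99-fold lower (7775 and 2603). Tars (0.05) and Mars1 (-0.02) were highest. Of 26 genes of amino acid sensing at the lysosome, 3 were higher and 3 lower (median 0.04). Castor1, an arginine sensor, was 3.88-fold and Mtor 3.20-fold higher, against 0.13 on a dimmer Mtor probe set. Tsc2 was 3.46-fold and Flcn 2.58-fold lower, the latter against 0.28 on a dimmer probe set. Of 18 measured amino acid and peptide transporters of other families, 2 were higher and 1 lower (median -0.14). Slc15a2, a peptide carrier, was 3.63-fold higher on the brightest of 3 probe sets (the others at 1.68 and 2.19), and Slc15a4 was 2.07-fold higher. Slc16a10 (TAT1), which releases aromatic amino acids, read 496 and 136, 3.65-fold lower (-1.29 on the dimmer probe set). Next lowest was Slc25a12, a mitochondrial aspartate carrier, at -0.77, with its other probe set at 0.00.

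**Figure D5:**
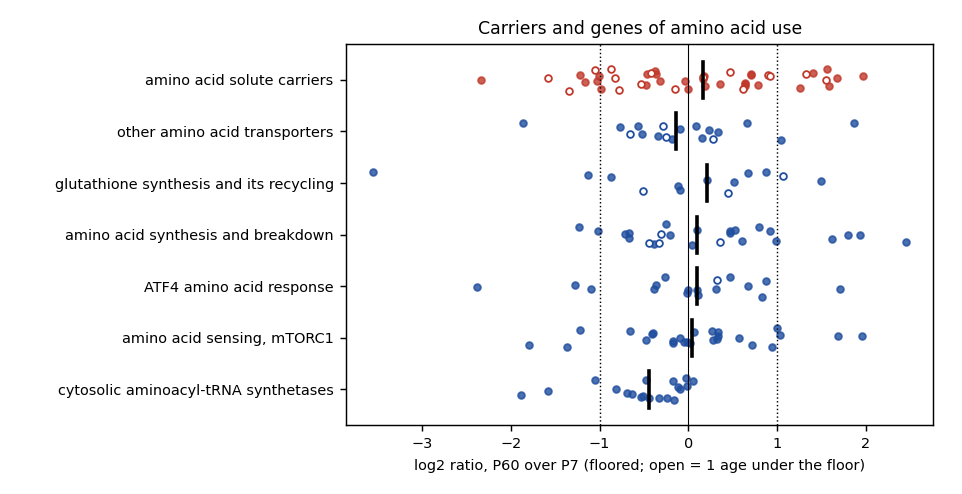
Log2 ratio (P60 over P7, floored) of each measured gene in the carrier set (red) and in 6 lists of amino acid use (blue), with list medians as black bars, bounds as open points and 2-fold as dotted lines. The aminoacyl-tRNA synthetases lie furthest left by median (-0.45), and the carriers spread from -2.34 to 1.97 around 0.16.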

How the data were processed

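Total RNA from pooled lenses was hybridised to 1 array at each age. The authors deposited 1 linear signal intensity per probe set and array; per the submitters' processing notes MAS5 was among the tools, and its version, scaling settings and detection calls were not used here. Gene names came from the platform's annotation: 34958 probe sets had 1 symbol, 932 several and 9211 none. Of the 34958, 34754 matched a RefSeq gene by gene number, which updated the symbol. Only probe sets with 1 symbol were used, so 1 probe set shared by Slc1a2 and another symbol was left out.

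From the intensities, log2 ratios (P60 over P7) were computed after raising values to the floor of 103.9, for the brightest probe set of each gene, with Python 3.11.15, numpy 2.4.6 and pandas 2.3.3. A gene was measured when above the floor on at least 1 array and counted from 2-fold on. With 1 array per age there is no replicate, and the number of arrays limits the precision. The calculation was tested on simulated data, with differences planted only in bright genes and noise smaller than the spread between probe sets. Recovery of a difference near the floor was not tried.

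All genes of the symbol pattern are named; of each pathway list the 2 highest and 2 lowest measured genes were to be named, and others given were chosen for their role, such as Gclc, Gclm and Asns. The genes, lists and settings were chosen with earlier results of these data known.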

Additional observations from a re-analysis of the deposited data

How the results depend on the processing

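The counts of genes past 2-fold were 8 higher and 8 lower of 45 measured. With a floor of 52.0 they were 12 higher and 13 lower of 53 measured, and with a floor of 208, 6 higher and 5 lower of 31. With a pseudocount of 32 and no floor they were 12 higher and 11 lower of 63. Of the 45, 17 were higher and 12 lower when 1.5-fold counted, and 2 were higher and 1 lower when 3-fold counted. The shares of all genes at these settings are not given, so these counts cannot be set against them. The median of 0.16 was 0.0021 with the floor of 52.0, 0.016 with a pseudocount of 32 and no floor, -0.26 with the dimmest probe sets and -0.065 with the mean over probe sets, so its sign depends on the probe set chosen. Under the other settings run (a floor from receptor probe sets, quantile normalization, centring, no probe sets ending in _x_at or _s_at, no opposite-strand genes) both counts stayed within 1.5 times and the median within 0.1. Of 433 values of single genes under the alternatives, 397 moved by less than 0.58, 35 moved by more, and 1 changed sign past a call: Slc7a1, from -1.16 to 0.36, with the dimmest probe set above the floor. Many of the 397 could not move, since a gene with 1 probe set or above every floor is untouched by some settings. No paired analysis was possible because each age has 1 array. Signals near the floor limit Slc1a2, Slc1a3 and most Slc36 members.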
